A study of Mus musculus with 11 samples.

Results

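The transcripts of 6 S100 proteins (S100a4, S100a6, S100a8, S100a9, S100a10 and S100a11) and 4 annexins (Anxa1, Anxa2, Anxa3 and Anxa5) were followed in mouse livers in which YAP was switched on. The genes were taken by symbol, and all 10 were found among the 20893 genes of the deposited table. All 10 had at least 0.5 eRPKM in at least 3 of the 11 livers and so were among the 14244 genes tested. The value used throughout, eRPKM, divides a gene's read count by its exon length in kilobases and by the size of the library.

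S100 proteins are small EF-hand proteins that mostly work as dimers and change shape when they bind calcium, which exposes a surface for target proteins. Annexins bind negatively charged phospholipids in the presence of calcium and are recruited to the plasma membrane and to endosomes when calcium rises. The families meet directly: S100a10 holds Anxa2 in a heterotetramer, S100a11 binds Anxa1, and S100a8 with S100a9 form calprotectin, an abundant cytosolic complex of neutrophils and monocytes. In the resting liver, hepatocytes express few members of either family at a high level, and several members are better known from bile duct, myeloid and mesenchymal cells.

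RNA was taken from whole homogenized livers of C57BL/6 mice and sequenced in bulk, 1 library per liver. All 11 mice carried the ROSA26-rtTA-IRES-EGFP allele and received doxycycline food. The 4 controls (WT) lacked the YAP transgene and were labelled with 7 days of doxycycline, and the tetYAP mice were fed for 3 days (4 livers) or 7 days (3 livers). In the study's methods the tet-YAP transgene encodes an active YAP mutant and is switched on by rtTA, which Alb-CRE, active in hepatocytes, releases from a stop cassette. No control was labelled with 3 days of doxycycline, and no age was given. Nothing in the labels says whether mice of a group were littermates.

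Depth ran from 1251396 reads on genes in control liver 4 to 5941357 in 7-day liver 2. The other controls held 2409689 to 5495697 reads, the 3-day livers 2660233 to 3681416, and the 7-day livers at least 5312486. By Xist and Ddx3y, all 3 of the 7-day livers were female, as were control livers 2 and 3 and 3-day livers 3 and 4. The names of 3-day livers 1 and 4 and of 7-day liver 2 carry the suffix MF, whose meaning the labels do not give. Total Yap1 RNA ranged from 13.9 to 21.1 eRPKM over the 11 livers, so the transgene could not be read from this row. Summed levels of 8 hepatocyte markers were 1627 to 4433 eRPKM in controls, at 3 days 1962 to 2376, and at 7 days 1277 to 1446. The reads of Alb, 1 of these markers, followed depth only weakly. They were 2417 to 3102 in a control library, 2550 to 2760 at 3 days and 2840 to 2934 at 7 days. Its eRPKM was 267.7 in control liver 2, the deepest control, and 234.3 to 258.1 at 7 days. The part of depth in the 7-day hepatocyte sums was not tested. Because the libraries are bulk, fewer cells of a type and less RNA per cell cannot be told apart in any value below.

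After 7 days, 5 of the 10 members were higher than in controls: S100a11, Anxa3, Anxa2, Anxa5 and S100a9. The same 5 were higher at 7 days than at 3 days. A gene was called when its adjusted p (limma, Benjamini-Hochberg over the 14244 genes) was under 0.01 and its log2 fold change exceeded 0.5 in size. Of all genes tested, 18.0% were called higher at 7 days against control and 14.0% at 7 days against 3 days. No member was lower in either comparison. At 3 days against control 0 of 10 members were called, where 0.0421% of all genes were called higher. At an unadjusted limma p under 0.05 that comparison held 1 member, Anxa5, and limma-voom on the reads behind the values also called 0.

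The members' median log2 fold change was 1.74 at 7 days against control, beside 0.26 over all genes tested, and 0.02 at 3 days, beside 0.02 over all genes. Livers at 7 days lay above every control for 7 of the 10 members, where 36.7% of all genes did so, and above every 3-day liver for 7 of 10, where 31.3% did. At 3 days only Anxa5 among the members lay above all controls, as did 3.38% of genes. The scale of the 7-day libraries matters for small changes. The median over all genes moved from 0.26 to 0.02 with median-ratio size factors and to -0.08 after quantile normalization. With these the calls over all genes went from 2561 higher and 822 lower to 1948 and 1281, and to 1857 and 1821. With log2 depth as a covariate the median was 0.07, and 1099 genes were called higher and 577 lower. The same 5 members were called in that fit. Depth differed between the groups, so the fit cannot fully part depth from induction. Changes of members near 0.26 are therefore close to the shift of the whole table.

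**Figure D1:**
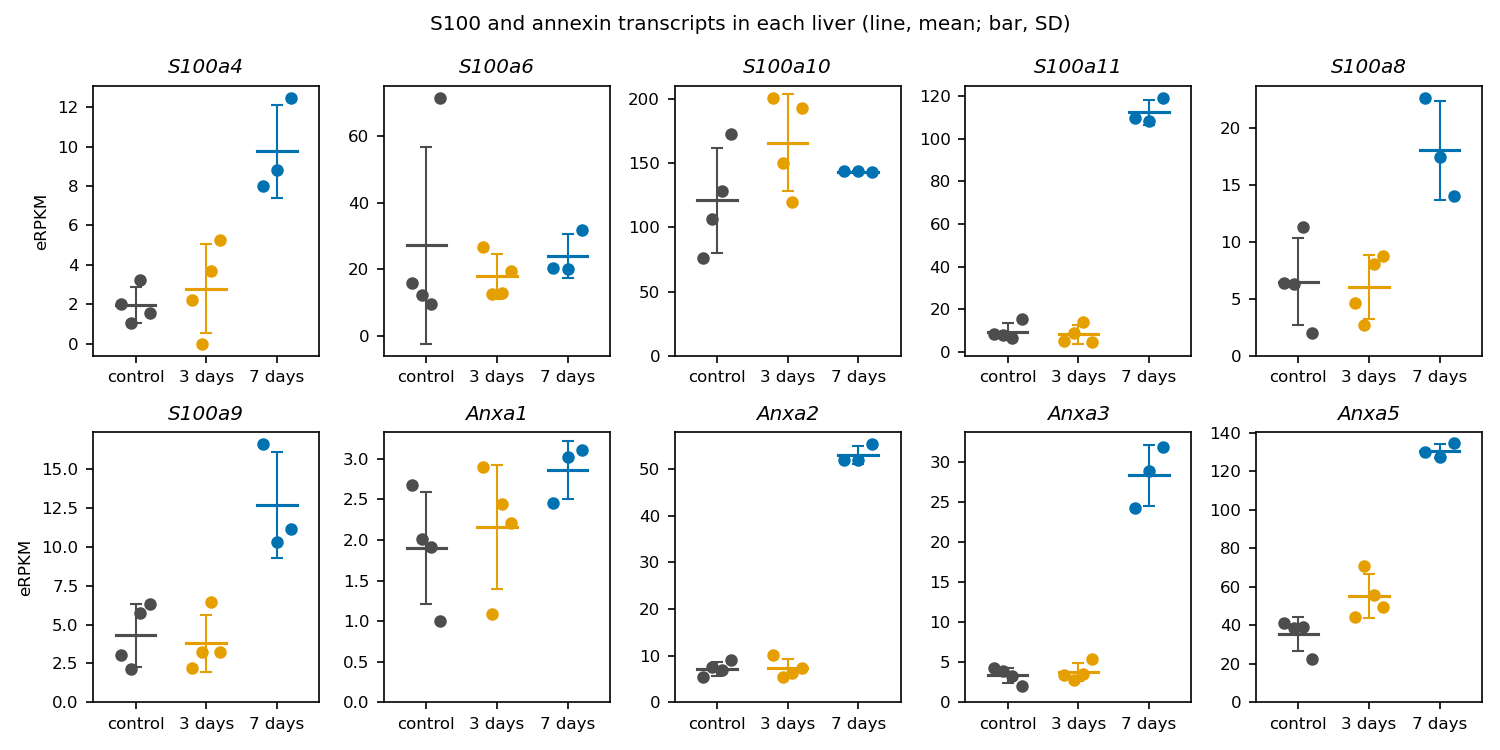
The eRPKM of each member (vertical axis, linear, 1 panel per gene) is plotted for the 4 control, 4 3-day and 3 7-day livers, 1 point per liver, with the group mean as a line and the SD as a bar. The 7-day livers stand clear of the other 8 for S100a4, S100a8, S100a9, S100a11, Anxa2, Anxa3 and Anxa5, while S100a6 has a single control at 71.2 eRPKM.

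Anxa2, which organizes lipid rafts and the cortical actin at the membrane and is a surface receptor for plasminogen, rose about 7-fold at 7 days. It measured 5.49, 7.50, 6.86 and 8.996 eRPKM in control livers 1 to 4. The 3-day livers held 10.1, 5.48, 6.22 and 7.44 eRPKM and the 7-day livers 52.0, 51.8 and 55.3 eRPKM. Controls and 3-day livers overlapped throughout, and the 7-day livers differed from each other by less than 4 eRPKM. Against control the log2 difference was 2.82 (SE 0.22, adjusted p = 2.9e-06, limma), and against 3 days 2.81 (SE 0.22, adjusted p = 4.3e-06). At 3 days it was 0.00 (95% interval -0.43 to 0.44).

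Anxa3, a calcium-dependent phospholipid-binding protein first described as an inhibitor of phospholipase A2, moved in the same comparisons. Controls measured 4.31, 3.87, 3.26 and 2.09 eRPKM, the 3-day livers 3.36, 2.78, 3.55 and 5.48 eRPKM, and the 7-day livers 24.3, 28.9 and 31.9 eRPKM. The lowest 7-day liver was more than 4 times the highest of the other 8. Its log2 difference reached 2.92 (SE 0.27, adjusted p = 8.3e-06, limma) against control and 2.78 (SE 0.27, adjusted p = 1.6e-05) against 3 days.

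Anxa5, the phosphatidylserine-binding annexin used to stain dying cells, had the highest mean of the 4 annexin members in all 3 groups. Its levels were 41.5, 38.9, 39.3 and 22.5 eRPKM in controls, 44.6, 70.9, 55.8 and 49.6 eRPKM at 3 days, and 130.2, 127.3 and 134.6 eRPKM at 7 days. No group overlapped another, and the order was control, 3 days, 7 days. The 3-day livers exceeded controls by 0.65 on the log2 scale (SE 0.20), which did not pass (adjusted p = 0.198, limma). At 7 days it was 1.90 (SE 0.22, adjusted p = 3.6e-05), and between 7 and 3 days 1.26 (SE 0.22, adjusted p = 0.00084). Control liver 4, the shallowest library with 50 Anxa5 reads, was the lowest value. Without it the 3-day difference was 0.44 (adjusted p = 0.248) and the 7-day difference 1.70 (adjusted p = 3.3e-05). With only the livers that lack the MF suffix, the difference between 7 and 3 days was 1.07 and was not called (adjusted p = 0.0339, limma).

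Anxa1, a glucocorticoid-induced ligand of formyl peptide receptors, stayed low. It measured 2.68, 2.01, 1.91 and 1.002 eRPKM in controls, 2.90, 1.09, 2.44 and 2.21 eRPKM at 3 days, and 2.46, 3.02 and 3.11 eRPKM at 7 days. The lowest 7-day liver fell within the controls. At 7 days the log2 difference from control was 0.53 (95% interval -0.16 to 1.22, adjusted p = 0.209, limma) and turned to -0.11 after quantile normalization. A change as large as that of Anxa2 or Anxa3 lies outside this interval.

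**Figure D2:**
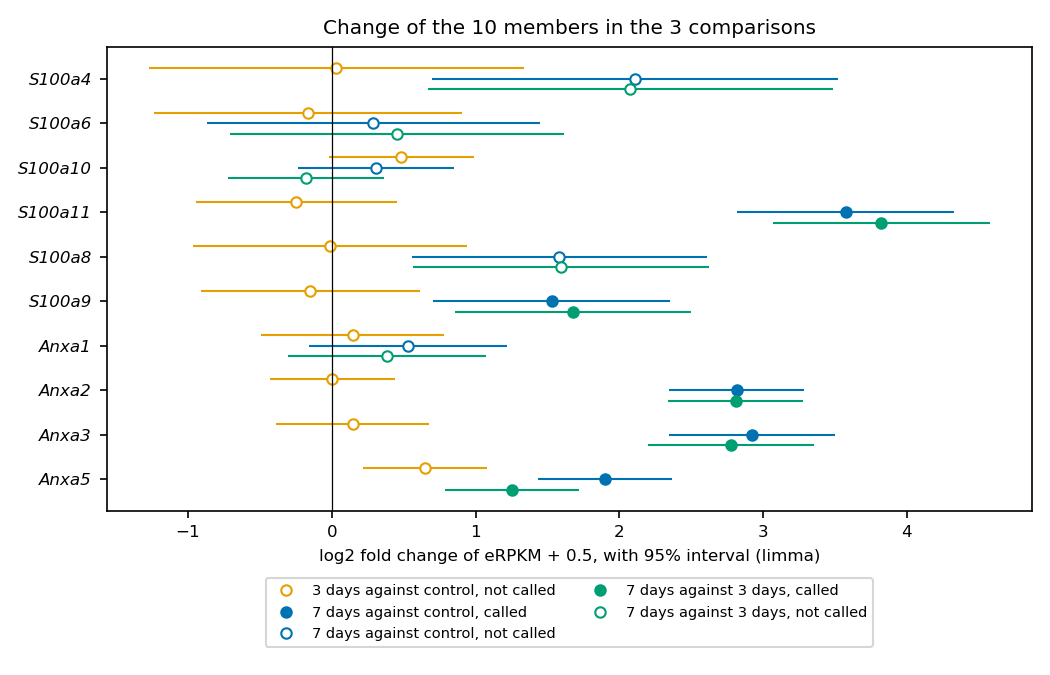
Log2 fold changes of eRPKM + 0.5 (horizontal axis) with 95% intervals from limma are shown for the 10 members in the 3 comparisons; filled points were called. Anxa2, Anxa3, S100a11, Anxa5 and S100a9 are filled in both comparisons with the 7-day livers, and every 3-day point is open.

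S100a11, which binds Anxa1 and takes part in membrane repair and in growth control of epithelial cells, had the largest change of the members. Its levels were 8.40, 7.70, 6.40 and 15.4 eRPKM in controls, 5.06, 9.02, 14.1 and 4.71 eRPKM at 3 days, and 109.6, 108.4 and 118.9 eRPKM at 7 days. Controls and 3-day livers overlapped, and the 7-day livers were at least 7 times the highest of them. S100a11 gained 3.58 on the log2 scale (SE 0.35, adjusted p = 1.3e-05, limma) against control and 3.82 (SE 0.35, adjusted p = 1.2e-05) against 3 days. The reads were 8 to 22 in a control library, 7 to 27 in a 3-day library and 305 to 335 in a 7-day library. Its transcript matched 8 other places of the mm9 genome, 4 of them over at least 80% of its length at 90% identity or more, so reads could have been divided among near-identical copies. No other member had such a copy.

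S100a10, the light chain of the Anxa2 heterotetramer and a calcium-independent S100 protein, was the most abundant member in all 3 groups. Controls measured 76.2, 106.6, 128.4 and 173.1 eRPKM, the 3-day livers 200.5, 149.8, 120.0 and 193.0 eRPKM, and the 7-day livers 144.0, 143.5 and 142.8 eRPKM. The 7-day livers lay inside the range of controls. At 7 days its log2 difference was 0.31 (95% interval -0.24 to 0.85, adjusted p = 0.362, limma), close to the 0.26 of all genes. Quantile normalization, which removes that shift and more, gave 0.86 and a call (adjusted p = 0.00195), whereas median-ratio size factors gave 0.03 (adjusted p = 0.955). Its direction was upward in each, but its call depended on the scaling.

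The transcripts of the heterotetramer stood in other proportions at 7 days. The ratio of S100a10 to Anxa2 eRPKM was 13.9 to 19.2 in controls, at 3 days 19.3 to 27.3, and at 7 days 2.58 to 2.77. S100a10 in the 7-day livers lay within the control range and Anxa2 above it. The ratio of S100a11 to Anxa1 was 3.13 to 15.4 in controls, at 3 days 1.74 to 8.25, and at 7 days 35.9 to 44.6. Both ratios are descriptions of levels per kilobase, with no test. S100a10 exceeded S100a11 by 9.08 to 20.1 times in controls, at 3 days by 8.50 to 41.0 times, and at 7 days by 1.20 to 1.32 times.

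**Figure D3:**
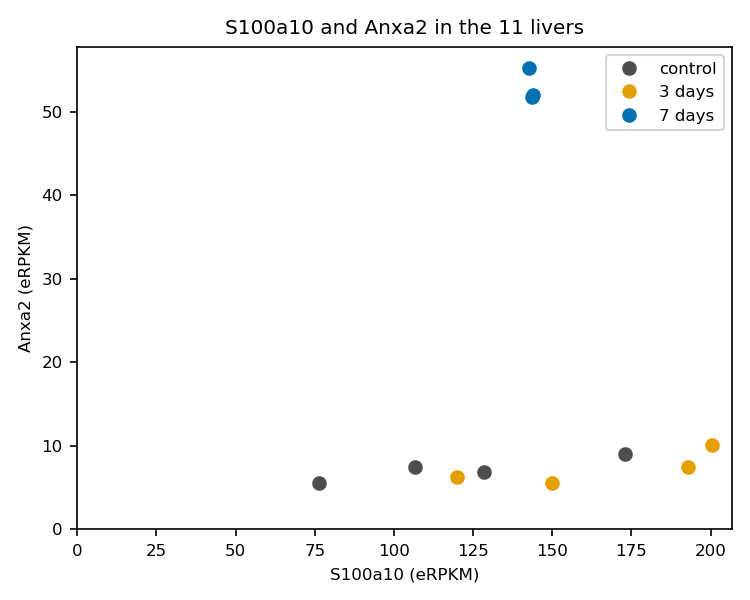
Anxa2 (vertical axis, eRPKM) is plotted against S100a10 (horizontal axis, eRPKM), 1 point per liver, coloured by group. The 7-day livers sit at 51.8 to 55.3 eRPKM of Anxa2, within the spread of S100a10 of the controls, which runs from 76.2 to 173.1 eRPKM.

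The promoter stretches of S100a11 and Anxa2 are shown because their transcripts moved most among the members with a sequence here, with Anxa5 and S100a9 as the other called members and S100a6, which was not called, for contrast. Each is the 250 bases before the RefSeq start on GRCm38.p6, 5′ to 3′ on the gene's strand. S100a11 is at chr3:93520246-93520495 (plus strand), Anxa2 at chr9:69453433-69453682 (plus), Anxa5 at chr3:36475888-36476137 (minus), S100a9 at chr3:90695722-90695971 (minus) and S100a6 at chr3:90612644-90612893 (plus). Capitals mark 4 motifs searched on both strands. The TEAD motif was searched as CATTCC and the AP-1 motif as TGANTCA. The TATA box was searched as TATAAA and the GC box as GGGCGG. No matches of different motifs overlap.
S100a11: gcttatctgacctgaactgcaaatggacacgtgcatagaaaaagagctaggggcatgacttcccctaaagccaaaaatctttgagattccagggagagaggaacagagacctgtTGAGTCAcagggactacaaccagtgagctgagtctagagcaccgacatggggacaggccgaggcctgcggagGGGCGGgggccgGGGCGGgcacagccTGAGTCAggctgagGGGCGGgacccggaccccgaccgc
Anxa2: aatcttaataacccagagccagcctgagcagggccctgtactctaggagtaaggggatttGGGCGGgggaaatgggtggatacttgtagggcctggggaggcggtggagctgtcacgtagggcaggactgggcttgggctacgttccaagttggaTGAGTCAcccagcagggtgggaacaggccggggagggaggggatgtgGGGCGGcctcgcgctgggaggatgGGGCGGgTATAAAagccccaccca
Anxa5: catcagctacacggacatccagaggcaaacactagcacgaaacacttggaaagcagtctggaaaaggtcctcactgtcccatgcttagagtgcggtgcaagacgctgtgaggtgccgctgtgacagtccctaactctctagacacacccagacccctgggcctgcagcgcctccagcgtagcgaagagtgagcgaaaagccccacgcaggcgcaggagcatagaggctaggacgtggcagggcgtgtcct
S100a9: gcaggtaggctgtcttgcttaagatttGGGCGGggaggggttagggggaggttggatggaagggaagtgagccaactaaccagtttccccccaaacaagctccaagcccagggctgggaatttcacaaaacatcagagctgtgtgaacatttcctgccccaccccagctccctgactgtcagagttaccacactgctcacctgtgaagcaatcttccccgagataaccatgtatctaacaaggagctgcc
S100a6: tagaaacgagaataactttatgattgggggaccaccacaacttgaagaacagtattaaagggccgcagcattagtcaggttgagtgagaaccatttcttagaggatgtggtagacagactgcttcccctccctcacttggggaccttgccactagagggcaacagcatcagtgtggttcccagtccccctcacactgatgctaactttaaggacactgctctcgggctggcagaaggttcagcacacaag

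S100a11 held 2 AP-1 motifs, 136 to 130 and 38 to 32 bases before its start, and Anxa2 held 1, 95 to 89 bases before. They were the only members with AP-1 letters among the 8 with a stretch here, and 6.75% of all 32851 stretches of this length held the motif. GC boxes stood 3 times in each of S100a11 and Anxa2 and once in S100a9, and in 32.7% of all stretches. TATA letters were found in Anxa2, S100a4, S100a8 and Anxa1, each within 32 bases of the start, against 12.4% of all stretches with the letters anywhere in the 250 bases. The TEAD letters, through which YAP is brought to DNA, stood only in Anxa1, 236 to 231 bases before the start, and in 12.6% of all stretches. The stretches of Anxa5 and S100a6 held none of the 4 motifs. These are matches of letters in 250 bases and show no binding.

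S100a4, known as fibroblast-specific protein and as a partner of non-muscle myosin, was low everywhere and highest at 7 days. Its levels were 1.996, 1.06, 3.23 and 1.55 eRPKM in controls, 2.19, 0.00, 3.70 and 5.28 eRPKM at 3 days, and 7.98, 8.83 and 12.4 eRPKM at 7 days. Every 7-day liver exceeded the other 8, and 3-day liver 2 held no read. The difference from control, 2.11 on the log2 scale (SE 0.65), missed the threshold (adjusted p = 0.0221, limma). These values rest on 1 to 4 reads in a control library and 22 to 34 in a 7-day library. Within female livers it was 2.06 and called (adjusted p = 0.0050).

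S100a6, or calcyclin, a marker of proliferating and ductal cells, showed no difference beyond the spread. Controls measured 15.9, 12.3, 9.53 and 71.2 eRPKM, the 3-day livers 26.8, 12.6, 12.8 and 19.4 eRPKM, and the 7-day livers 20.4, 20.2 and 31.8 eRPKM. Control liver 4 was more than 4 times the next control. Its 7-day log2 difference was 0.29 (95% interval -0.87 to 1.45, adjusted p = 0.700, limma). Without control liver 4 it was 0.91 (adjusted p = 0.0388), and without control liver 3 it was -0.04 (adjusted p = 0.966).

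S100a8 and S100a9 both reached their highest levels at 7 days, and S100a9 passed the test. S100a8 measured 6.35, 6.30, 11.3 and 1.98 eRPKM in controls, 4.64, 2.73, 8.07 and 8.74 eRPKM at 3 days, and 22.6, 17.5 and 13.98 eRPKM at 7 days. S100a9 measured 3.04, 2.15, 5.75 and 6.32 eRPKM in controls, 2.22, 3.27, 6.44 and 3.22 eRPKM at 3 days, and 16.6, 10.3 and 11.2 eRPKM at 7 days. For both genes the 7-day livers lay above all 8 others, and control and 3-day livers overlapped. S100a9 was higher by 1.53 on the log2 scale against control (SE 0.38, adjusted p = 0.0070, limma) and 1.68 against 3 days (SE 0.38, adjusted p = 0.0051). That of S100a8 was 1.58 (SE 0.47, adjusted p = 0.0191) and 1.60 (SE 0.47, adjusted p = 0.0207), which missed the threshold.

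The call of S100a9 was close to the threshold. It was lost without control liver 1 or 2, without 3-day liver 2, without any one of the 7-day livers, among livers lacking the MF suffix, and within female livers (log2 fold change 1.66, adjusted p = 0.0179, limma). It was also lost with median-ratio size factors (1.26, adjusted p = 0.0291) and after quantile normalization (0.9995, adjusted p = 0.0673). In all of these the value stayed above 0. Against 3 days the call was lost in 12 of 28 settings, among them without 3-day liver 1, 2 or 4 and without any one of the 7-day livers (highest adjusted p = 0.0813). The difference at 7 days rests on 30 to 45 S100a9 reads in a 7-day library and 4 to 7 in a control.

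Markers of the myeloid cells that carry calprotectin were uneven at 7 days. Of 11 neutrophil markers 10 were in the table, 6 were tested and 1 was called higher at 7 days, Retnlg, with a log2 fold change of 2.10 (SE 0.39, adjusted p = 0.0011, limma), beside 18.0% of all genes. Cxcr2, the neutrophil marker with the highest level, gave -0.13 (adjusted p = 0.614), Camp -0.07 and Prtn3 0.31, none of them called. Csf3r and Mmp8 were not called either, but every 7-day liver lay above every control. Csf3r was 1.77 to 2.41 eRPKM in controls and 3.49 to 6.46 at 7 days, and Mmp8 0.00 to 0.316 and 0.598 to 0.745. Against 3 days, 3 of the 6 tested neutrophil markers were called higher, beside 14.0% of all genes. Their summed level was 11.4 to 14.3 eRPKM in controls, at 3 days 6.65 to 11.1, and at 7 days 15.9 to 21.6, with Ly6g not listed and no listed marker at 0 in every liver. Of 6 monocyte markers 4 were called higher, while Ly6c2 gave -0.23 and Lyz2, which makes up most of the list's sum, gave 0.99 (adjusted p = 0.0225), and the sum went from 59.2 to 109.0 eRPKM in controls to 179.2 to 225.0 at 7 days. Of 7 Kupffer cell markers 6 were called higher, and the sum went from 188.4 to 392.9 eRPKM to 792.4 to 850.0. Of the granule genes, Mpo, Elane, Ngp and Ltf were below the filter, Camp was at most 1.22 eRPKM in any liver, and Prtn3 reached 2.27 eRPKM in control liver 4. The part of these cells in the S100a8 and S100a9 levels was not tested.

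Of the other cell types, biliary markers had 1 of 7 tested called higher at 7 days against control, endothelial markers 3 of 9 and lymphocyte markers 1 of 8. Stellate markers had 0 of 10 called higher and 1 lower. Over all genes 18.0% were called higher, and 822 of 14244 lower, so the biliary and lymphocyte counts are near that of all genes. The lists differed below the threshold. Every 7-day liver lay above every control for 4 of 7 biliary and 1 of 8 lymphocyte markers, beside 36.7% of all genes. Their median log2 fold changes were 0.95 and 0.12, beside 0.26 over all genes. The biliary markers summed to between 48.4 and 60.2 eRPKM in controls, 47.3 and 94.3 at 3 days, and 71.4 and 130.8 at 7 days. The stellate sum was 183.4 to 258.3 eRPKM in controls and 130.9 to 161.0 at 7 days. Hepatocyte markers had 3 of 8 called lower, and the part of depth in these was not tested. Blood markers had 1 of 4 tested called in each direction. The part of these cells in the annexin and S100a11 levels was not tested.

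The S100 genes lie on chromosome 3 in mm9 coordinates of GENCODE M1, in a pair of stretches. S100a4 (90407692 to 90409967), S100a6 (90416816 to 90418336) and S100a8 (90472993 to 90473956) are on the plus strand and S100a9 (90496554 to 90499643) is on the minus strand. S100a11 (93324410 to 93330209) and S100a10 (93359002 to 93368565) follow on the plus strand. S100a10 starts 34.6 kb from S100a11 and had a log2 fold change of 0.31 beside 3.58, with 95% intervals of -0.24 to 0.85 and 2.82 to 4.33 that do not meet. S100a4 starts 9.1 kb from S100a6 and had 2.11 beside 0.29, with intervals that overlap. The neighbours S100a8 and S100a9 had 1.58 and 1.53. Within 250 kb of the S100a6 start 11 other genes were tested, and 2 were called higher at 7 days, S100a9 and Slc27a3.

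**Figure D4:**
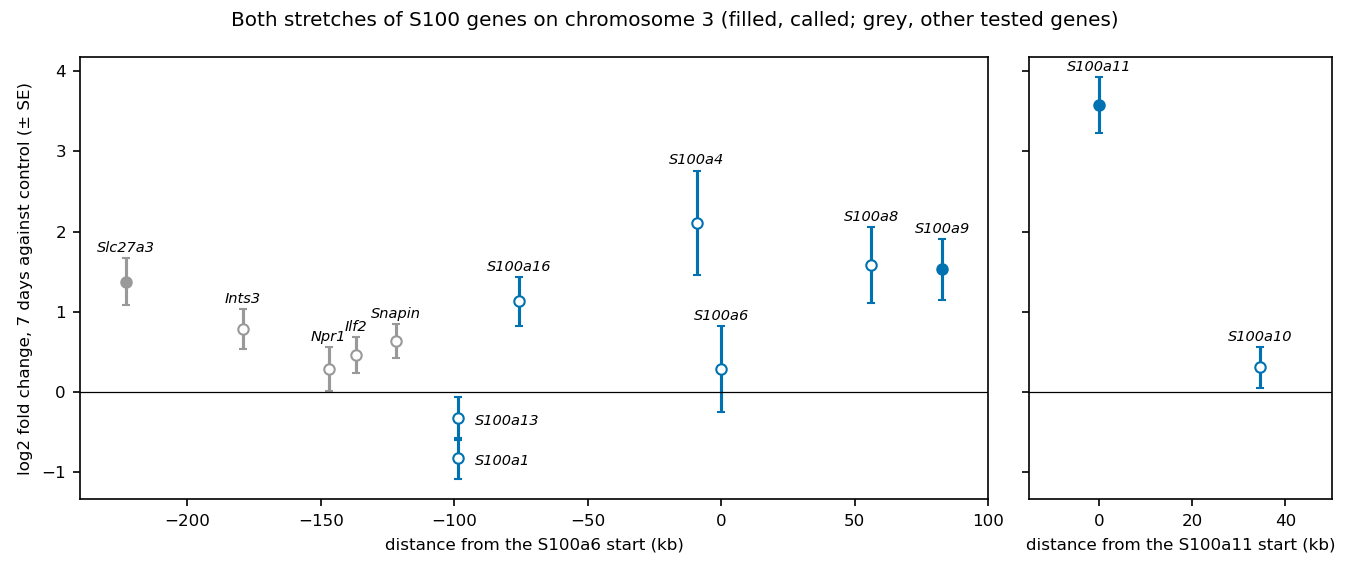
Log2 fold change at 7 days against control with its SE (vertical axis) is plotted against distance in kb from the start of S100a6 (left) and of S100a11 (right) for all tested genes in those windows, S100 genes in blue and filled where called. S100a11 at 3.58 and its neighbour S100a10 at 0.31 stand apart, and S100a1 and S100a13 lie below 0.

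The annexin genes are scattered. Anxa5 spans 36347847 to 36374765 on chromosome 3 (minus strand), Anxa3 97222404 to 97274987 on chromosome 5 (plus), Anxa2 69301427 to 69339602 on chromosome 9 (plus) and Anxa1 20447918 to 20465434 on chromosome 19 (minus). The exons of Anxa2 overlap those of the antisense gene Gm16144 over 98 bases, 2.63% of its exon length, and since the libraries were aligned without strand these reads cannot be told apart. No other member's exons overlap another gene. The longest run shared by 2 members' transcripts was 19 bases.

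Of the other S100 genes, 4 of 11 were tested and none was called in any comparison. Over all genes 18.0% were called higher at 7 days against control. S100a16, a broadly expressed member, measured 10.5 to 33.1 eRPKM in controls, at 3 days 23.8 to 38.7, and at 7 days 41.9 to 49.7, and missed the threshold at 7 days (log2 fold change 1.13, SE 0.30, adjusted p = 0.0108, limma). S100a1, known from muscle as a partner of the calcium pump and ryanodine receptor, was 96.6 to 123.6 eRPKM in controls and 55.7 to 65.8 at 7 days. Its 3-day livers spread from 69.4 to 168.7 eRPKM, and against control the 7-day livers gave -0.83 on the log2 scale (SE 0.26, adjusted p = 0.0233). S100a1 and S100a13 start side by side and strand was not used, so reads near their starts are uncertain. S100a13 and S100g gave -0.33 and 0.49 (adjusted p = 0.354 and 0.434). S100a2, S100a3, S100a5, S100a7a, S100a14, S100b and S100z were below the filter, S100a7a and S100z with no read in any liver.

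Of the other annexins, 6 of 8 were tested and 1 was called, at 7 days against control, beside 18.0% of all genes called higher. This was Anxa4, an epithelial annexin of secretory membranes. It measured 20.5, 23.9, 21.0 and 15.8 eRPKM in controls, 19.9, 38.5, 39.9 and 20.9 eRPKM at 3 days, and 39.0, 43.7 and 40.9 eRPKM at 7 days. Against control it gained 1.02 at 7 days on the log2 scale (SE 0.25, adjusted p = 0.0064, limma), a call lost in 11 of 28 settings, and the 3-day livers fell into a high and a low pair, the low pair being livers 1 and 4. Anxa6, Anxa7, Anxa9 and Anxa11 were also above all controls in every 7-day liver, as were 36.7% of all genes. Their log2 fold changes of 0.87, 0.33, 0.90 and 0.88 missed the threshold (adjusted p = 0.0376, 0.0619, 0.0482 and 0.0306, limma). Anxa13 gave 0.54 (adjusted p = 0.343). Anxa8 and Anxa10 were below the filter.

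The makeup of both families changed with these genes. Summed over the 12 annexins, the level was 124.4 to 165.8 eRPKM in controls, between 145.7 and 221.5 at 3 days and 379.3 to 405.9 at 7 days. Anxa2 made up 3.31 to 7.23% of that sum in controls and 13.6 to 13.7% at 7 days, and Anxa5 18.1 to 25.4% and 33.1 to 34.0%. Over the 17 S100 genes the sum was 263.2 to 422.6 eRPKM in controls and 440.8 to 458.2 at 7 days. The 3-day livers ran from 280.6 to 467.2 eRPKM, and livers 1 and 4 among them exceeded every 7-day liver. S100a11 made up 1.97 to 3.64% of it in controls and 24.1 to 25.9% at 7 days, while S100a10 made up 29.0 to 41.0% and 31.2 to 32.7%. Shares of this kind fall for one gene when another rises.

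The genes that S100 proteins and annexins act through were taken as 3 lists, chosen with earlier results of these data known. Over all genes tested, 18.0% were called higher at 7 days against control and 14.0% against 3 days. At 7 days against control 822 of 14244 were called lower. Of 5 receptors, 4 were called higher at 7 days against control and 0 lower. Ager, the RAGE receptor of S100 proteins, had a log2 fold change of 1.68 (SE 0.27, adjusted p = 0.00044, limma), and Tlr4, a receptor of calprotectin, 1.67 (SE 0.26, adjusted p = 0.00029). Fpr1 and Fpr2, the formyl peptide receptors that Anxa1 engages, gave 2.57 (SE 0.37, adjusted p = 0.00017) and 2.13 (SE 0.41, adjusted p = 0.0014). Bsg, or basigin, gave 0.04 (adjusted p = 0.885). These receptor genes are also expressed by myeloid cells, whose markers are given above.

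Of 7 genes of the plasminogen system, which the S100a10 and Anxa2 complex engages at the cell surface, 5 were tested. Against control 2 of the 5 were called higher at 7 days and 1 lower, beside 18.0% and 822 of 14244 over all genes. Plau, the urokinase activator, and Plaur, its receptor, were called higher at 7 days against control with log2 fold changes of 3.43 (SE 0.36, adjusted p = 2.4e-05, limma) and 4.11 (SE 0.45, adjusted p = 3.1e-05). Plg, the hepatocyte-made zymogen, was called lower at -0.86 (SE 0.21, adjusted p = 0.0069), a call lost in 18 of 28 alternative settings (highest adjusted p = 0.0549). Plau measured 0.328 to 2.16 eRPKM in controls and 12.4 to 23.1 at 7 days, and Plg 117.9 to 232.2 and 85.7 to 97.0. Plgrkt, a membrane receptor of plasminogen, missed the threshold against control at 1.07 (adjusted p = 0.0104). It was called higher against 3 days, at 1.27 (adjusted p = 0.0048), which was lost in 11 of 28 settings. Serpinf2, or antiplasmin, gave -0.69 (adjusted p = 0.0150), and Plat and Serpinb2 were below the filter. Plg held 1110 to 2480 reads in a control library and 1944 to 1969 in the deeper 7-day libraries, and Serpinf2 1039 to 2432 and 1875 to 2140. In control liver 2, the deepest control, Plg was 117.9 eRPKM and Serpinf2 195.6, beside 154.9 to 170.1 for Serpinf2 at 7 days. The part of depth in the lower values of both genes was not tested.

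Of 6 intracellular partners, 4 were called higher at 7 days against control, beside 18.0% of all genes. Ahnak, the giant scaffold that binds the S100a10 and Anxa2 complex, gave 2.55 (SE 0.17, adjusted p = 1.4e-06, limma), and Myof, a ferlin of membrane repair, 2.28 (SE 0.24, adjusted p = 2.0e-05). Pla2g4a, the cytosolic phospholipase A2 that annexins restrain, gave 2.17 (SE 0.31, adjusted p = 0.00020), and Myh9, the myosin heavy chain bound by S100a4, 1.61 (SE 0.36, adjusted p = 0.0035), lost in 6 of 28 settings. Ahnak measured 12.4 to 21.6 eRPKM in controls, at 3 days 16.8 to 19.6, and at 7 days 93.3 to 102.8. Dysf, the other ferlin of the list, was called only against 3 days, at 1.33 (adjusted p = 0.0071), and lost that call in 15 of 28 settings. Cacybp, which binds S100a6, was called lower against 3 days at -0.95 (adjusted p = 0.0080) and gave -0.29 against control (adjusted p = 0.360). The call of Cacybp was lost in 18 of 28 settings. Its 3-day livers 1 and 4 held 83.3 and 91.7 eRPKM, beside 47.7 and 43.4 in livers 2 and 3.

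**Figure D5:**
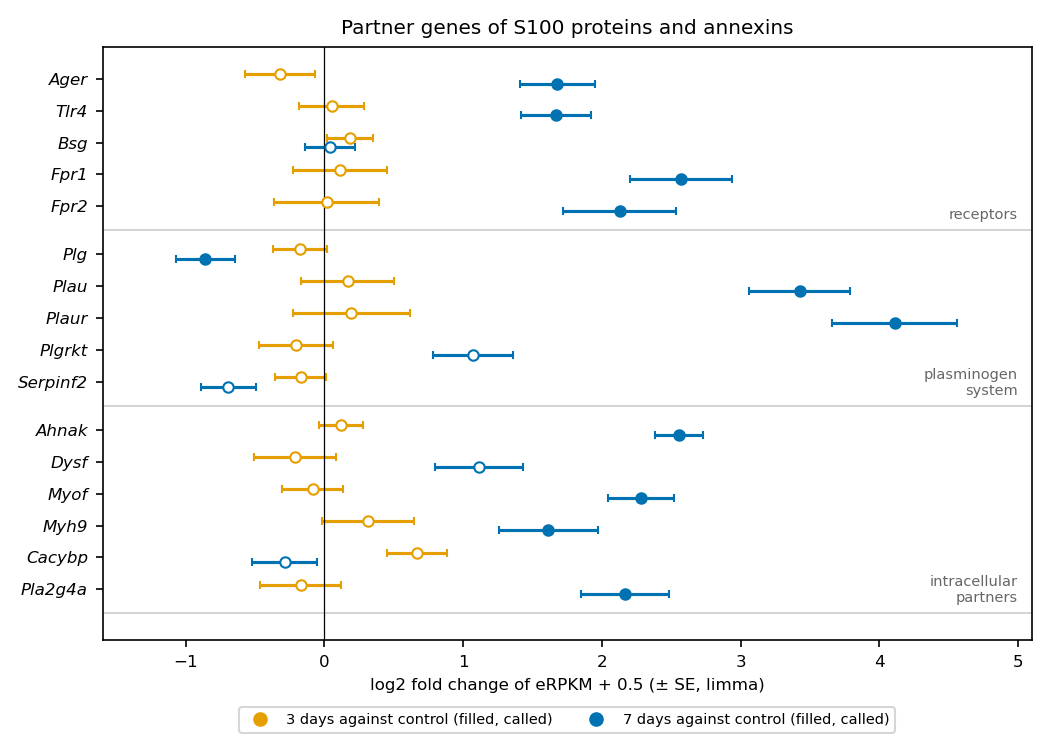
Log2 fold changes with SE (horizontal axis) against control at 3 days (orange) and 7 days (blue) are shown for the tested receptors, plasminogen genes and intracellular partners, filled where called. Plaur at 4.11 is furthest to the right, Plg at -0.86 is the only filled point below 0, and no 3-day point is filled.

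For several members the 3-day livers with the MF suffix did not overlap those without it. S100a10 was 193.0 to 200.5 eRPKM in the 2 livers with the suffix and 120.0 to 149.8 in the 2 without. S100a6 and Anxa2 were likewise higher in the suffixed livers, at 19.4 to 26.8 beside 12.6 to 12.8 eRPKM and 7.44 to 10.1 beside 5.48 to 6.22 eRPKM. S100a11, Anxa5 and S100a9 were lower in them, S100a11 at 4.71 to 5.06 beside 9.02 to 14.1 eRPKM. These ranges, from 2 livers on each side, are a description, and what the suffix marks was not tested. The share of all genes that part in this way was not computed, so the split cannot be called a trait of the members.

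The 7-day livers were all female, so the comparison was also made within sex. The fit held the female livers alone, and its spread also drew on the 2 female 3-day livers. Between the 2 female controls and 3 female 7-day livers the log2 fold changes were 3.91 for S100a11, 2.82 for Anxa3, 2.80 for Anxa2 and 1.73 for Anxa5. All 4 were called (adjusted p from 3.4e-05 to 0.00018, limma), beside 1523 of 14244 genes called higher in this fit. S100a6 gave 1.09 there (adjusted p = 0.0165), and S100a10 0.29 (adjusted p = 0.353).

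Exact two-sided permutation tests over livers, 30 in all, were run on the log2 values of each member. Their smallest possible p is 0.0286, which was reached at 7 days against control by S100a11, Anxa2, Anxa3, Anxa5, S100a9 and S100a4, and at 3 days by Anxa5. S100a8 gave an exact p of 0.0571 against control and 0.0286 against 3 days. These p-values are not adjusted over the 30 tests and do not rank the livers' separation. S100a8 against control, and S100a4 and S100a9 against 3 days, gave 0.0571 although every 7-day liver lay above the other group.

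Among genes that are not members, those whose log2 values ran most like each member over the 11 livers were listed by Pearson's r, with no p, since the 3 groups and their depths are shared by all points. Anxa3 ran most like Rab31 (r = 0.994) and Plekha2 (0.993), S100a11 like Smpd3 (0.992) and 2900011O08Rik (0.983), Anxa5 like Rassf1 (0.991) and Plekhb2 (0.985), and Anxa2 like Smc1b (0.989) and Tceal5 (0.987). S100a6 ran most like Thbs1 (0.955) and Fstl1 (0.944), whose levels were also highest in control liver 4, at 22.7 and 25.4 eRPKM. S100a10 ran most like Cd81 (0.909) and Vamp8 (0.898), Anxa1 like Sgk3 (0.937) and Mir1b (0.925), and S100a8 like Rundc1 (0.961) and Dpagt1 (0.949). S100a9 ran most like Nol12 (0.944) and Fam217b (0.938), and S100a4 like Lat2 (0.908) and Slc4a9 (0.898). No gene of the partner lists was among these pairs.

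Between members, Anxa2 and Anxa3 correlated at r = 0.948 and Anxa2 and S100a11 at 0.934 over the 11 livers. After the group means were removed the same pairs gave -0.206 and -0.209, so within groups these pairs did not run together. S100a10 and Anxa2 stood at 0.199 over all livers and 0.797 within groups. The other partner pairs did not share this: S100a8 and S100a9 gave 0.646 and 0.07, and S100a11 and Anxa1 0.364 and -0.46. Members not named as partners reached values as large within groups, such as S100a6 and Anxa5 at -0.874 and Anxa2 and Anxa5 at -0.822. S100a8 and S100a9, the subunits of calprotectin, had a ratio of 0.313 to 2.92 in controls, at 3 days 0.835 to 2.71, and at 7 days 1.25 to 1.70. These are descriptions over 11 points that share their libraries' depths.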

How the data were processed

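Total RNA of 11 whole livers (4 control, 4 at 3 days, 3 at 7 days) was sequenced by the authors from TruSeq libraries. The authors deposited eRPKM values, an RPKM over exons, made with reads aligned to mm9 by TopHat2 2.0.8 without strand. The submitters' processing notes also name SAMtools, featureCounts 1.4.5-p1 and DESeq2, and the gene annotation is not given in the sources used here. The authors also deposited a mean signal per gene and, for their own comparisons, log2 fold changes and p-values, none of which was used.

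Log2(eRPKM + 0.5) was tested with limma 3.58.1 (R 4.3.3, trend) in 1 fit of all 3 groups, over the 14244 genes that reached 0.5 eRPKM in 3 livers or more, with Benjamini-Hochberg adjustment. Fold changes on this scale understate changes of low genes. Calls needed an adjusted p under 0.01 and a log2 fold change over 0.5 in size. Comparisons share livers: both tetYAP groups were set against the same controls. Single members also had exact permutation tests over livers (SciPy 1.17.1). Labels do not say whether livers of a group were independent beyond being separate samples, so p-values measure the spread between these samples.

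Depth bears on low members: the values above 0 (177553) were all whole multiples of 1 read within 0.02 read, which gave the reads per library, and limma-voom on these reads was an alternative that called 2801 genes higher and 949 lower at 7 days. Counting error alone makes values of a few reads imprecise. Transcript copies were sought with BLAST 2.17.0 in mm9, and promoter stretches came from RefSeq (GRCm38.p6), where 8 of 10 members matched and S100a10 and Anxa3 did not. The scripts were tested on simulated data.

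The members and gene lists were chosen with earlier results of these data known. All members are named in every liver, and of the other lists the genes called in any comparison or below the filter. Genes of those lists that missed the threshold, genes beside a member, and marker genes were named after their values were seen. The list of other S100 genes was completed with S100a2 after the data were seen. For each member the 2 most correlated genes are named. In all, 28 alternatives were tried, 2 of them added after seeing the data. 1 further gene was left out of the lists and is not reported here.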

Additional observations from a re-analysis of the deposited data

Results flagged for a closer look

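In 20 groups of 4 livers each member was looked at for a single liver far from the rest, and chance alone flags about 1 in 20 such groups. Control liver 4 was set apart in 2 of them. For S100a6 it was the highest control, at 71.2 eRPKM beside 9.53 to 15.9, and its gap to the next liver made up 0.8963 of the range. For Anxa5 it was the lowest control, at 22.5 eRPKM beside 38.9 to 41.5, with a gap of 0.8639 of the range. This library had 1251396 reads on genes, the fewest of all.

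Against the shared controls, the change at 7 days differed from that at 3 days for 5 members, by the limma test of 7-day against 3-day livers. The log2 differences were 3.8225 for S100a11, 2.8104 for Anxa2, 2.7766 for Anxa3, 1.6781 for S100a9 and 1.2566 for Anxa5. The S100a9 call was lost in 12 of 28 alternative settings. Every 7-day liver was above every 3-day liver for each of the 5.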

How the results depend on the processing

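Anxa2, Anxa3, Anxa5 and S100a11 were called higher at 7 days against control under all 28 alternatives, and S100a9 under 16. The count of members called was 4 to 7 at 7 days against control, 3 to 7 against 3 days and 0 throughout at 3 days. With 1 liver left out the count of members was 4 to 6, 4 to 6 and 0 to 0. The genes called higher were then 1588 to 2770, 1048 to 2619 and 0 to 53 of 14244. Livers without the MF suffix alone gave 3 members at 7 against 3 days, with 2 livers left in each of these groups. Over all genes 672 of 14244 were called higher there. With the replicate number as a block the count of members was 6 at 7 days, 5 against 3 days and 0 at 3 days. The genes called higher were then 2032, 1429 and 3. Same-numbered livers had correlations of their deviations from -0.222 to 0.269, 2 of 10 pairs over 0.1, and 2 of 11 livers were closest to their own number, so the numbers were not taken to pair the livers.

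Members that were not called changed sign under some settings, and the cause was not tested. 
A pseudocount of 0.1 gave S100a4 -0.38 at 3 days. The MF suffix as a covariate gave S100a4 -0.37, S100a9 0.13, S100a11 0.11, Anxa1 -0.023, Anxa2 -0.15 at 3 days. Limma-voom on the reads gave S100a4 -0.081, S100a6 0.046, S100a9 0.029 at 3 days. Livers without the suffix gave S100a4 -0.69, S100a9 0.19, S100a11 0.32, Anxa1 -0.099, Anxa2 -0.26, Anxa3 -0.053 at 3 days and S100a10 0.097 at 7 against 3 days. The same livers without control liver 4 gave S100a4 -0.75, S100a6 0.047, S100a9 0.40, S100a11 0.57, Anxa1 -0.31, Anxa2 -0.16, Anxa3 -0.24 at 3 days and S100a10 0.097 at 7 against 3 days. Log2 depth as a covariate gave S100a6 0.11 at 3 days and S100a10 0.14 at 7 against 3 days. Female livers alone gave S100a6 0.53, S100a9 0.32, S100a11 0.21, Anxa2 -0.071 at 3 days. Log2 Xist as a covariate gave S100a8 0.018 at 3 days. Median-ratio size factors gave Anxa2 -0.026 at 3 days. Quantile normalization gave Anxa2 -0.041 at 3 days and Anxa1 -0.11 at 7 days and S100a10 0.35, Anxa1 -0.29 at 7 against 3 days. With 1 liver left out, ranges that crossed 0 were S100a4 -0.39 to 0.78 at 3 days, S100a6 -0.49 to 0.46 at 3 days, S100a8 -0.44 to 0.31 at 3 days, S100a9 -0.41 to 0.054 at 3 days, S100a11 -0.54 to 0.0023 at 3 days, Anxa1 -0.064 to 0.37 at 3 days, Anxa2 -0.15 to 0.12 at 3 days, Anxa3 -0.036 to 0.26 at 3 days, S100a6 -0.036 to 0.91 at 7 days.

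S100a4, S100a8, S100a9 and Anxa1 rest on few reads per liver, so small differences in them were not detectable at this depth. No control was taken at 3 days of doxycycline, so effects of feeding time in the 3-day comparison cannot be told apart from those of YAP. Fits with 1 liver left out estimate the spread from as few as 2 livers in the 7-day group and assume a common spread.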
